A study of Solanum lycopersicum with 24 samples.

Results

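The genes described here make the cutin of the fruit skin or set the identity of the epidermis in tomato (Solanum lycopersicum). They are CD1 (Solyc11g006250), GPAT6 (Solyc09g014350), CD3, also named CYP86A69 (Solyc08g081220), CD2 (Solyc01g091630), the MIXTA-like MYB gene (Solyc02g088190) and SHN3 (Solyc06g053240). These 6 genes were chosen by identifier for their known roles in the cuticle, with earlier results of these data known. They were matched to the table by the identifier before its version number. Of the 6, 5 were found among the 34688 genes of the count table and SHN3 was not analysed here. All 5 were among the 19620 genes with enough reads to be tested.

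RNA was sequenced from 24 libraries, 3 in each of 8 groups, of a purple-fruited genotype labelled MT-Aft/atv/hp2, which joins the Aft, atv and hp2 alleles. All groups share this genotype, so no comparison with plants lacking the alleles was made. Epicarp (the skin) and mesocarp (the flesh beneath it) were sampled separately from control fruit that grew in light for 30 d. They were also sampled from fruit wrapped in aluminium foil from flower opening for 30 d and taken 0 d, 2 d or 5 d after unwrapping. The fruit lit for 2 d and 5 d is older by those days, and darkness came with the wrap, so light, age and cover cannot be told apart.

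Cutin is the polyester of hydroxylated fatty acids that forms the frame of the plant cuticle, in which waxes are embedded. In the epidermal cell, long-chain acyl-CoA synthetases activate the fatty acids, cytochromes P450 of the CYP86A and CYP77A families hydroxylate them, and glycerol-3-phosphate acyltransferases join them to glycerol. Transporters of the ABCG family export the monomers, and the extracellular enzyme CD1 links them into the polymer. Tomato fruit deposits most of its cutin while it expands, and mutants named cutin deficient have thin cuticles.

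Among the enzymes, CD3 is the fatty acid hydroxylase, GPAT6 the acyltransferase and CD1 the cutin synthase, a protein of the GDSL lipase family. Among the regulators, CD2 is an HD-ZIP IV transcription factor required for cutin formation, and the MIXTA-like gene encodes a MYB factor that shapes epidermal cells. On genome build SL4.0, CD1 (Solyc11g006250.2) lies on the plus strand of chromosome 11 from 1043984 to 1046863. GPAT6 (Solyc09g014350.3) lies on the minus strand of chromosome 9 from 5897945 to 5901309. CD3 (Solyc08g081220.1) lies on the minus strand of chromosome 8 from 62401816 to 62403480. CD2 (Solyc01g091630.3) lies on the minus strand of chromosome 1 from 77464621 to 77470388. The MIXTA-like gene (Solyc02g088190.5) lies on the plus strand of chromosome 2 from 48386060 to 48388530. None of these intervals overlaps that of another gene in the table. Reads were counted over each whole interval, exons and introns together.

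Assigned reads ran from 18402751 to 23197867 per library. Levels are given as CPM, reads scaled to library size by TMM. A library with 0 reads allows a level of up to 3 reads, which is 0.129 to 0.163 CPM and covers counting error only. The 0 d libraries of a tissue stood further apart than those of other groups, with a median log2 range per gene of 0.71 in epicarp and 0.73 in mesocarp while that of the remaining 6 groups was 0.31 to 0.49. Each result with 0 d is therefore given library by library. Since the labels name no separate plants for the replicates, p-values reflect the spread of these samples alone, which may be technical. In whole tissue, fewer epidermal cells and less RNA per cell cannot be told apart.

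**Figure D1:**
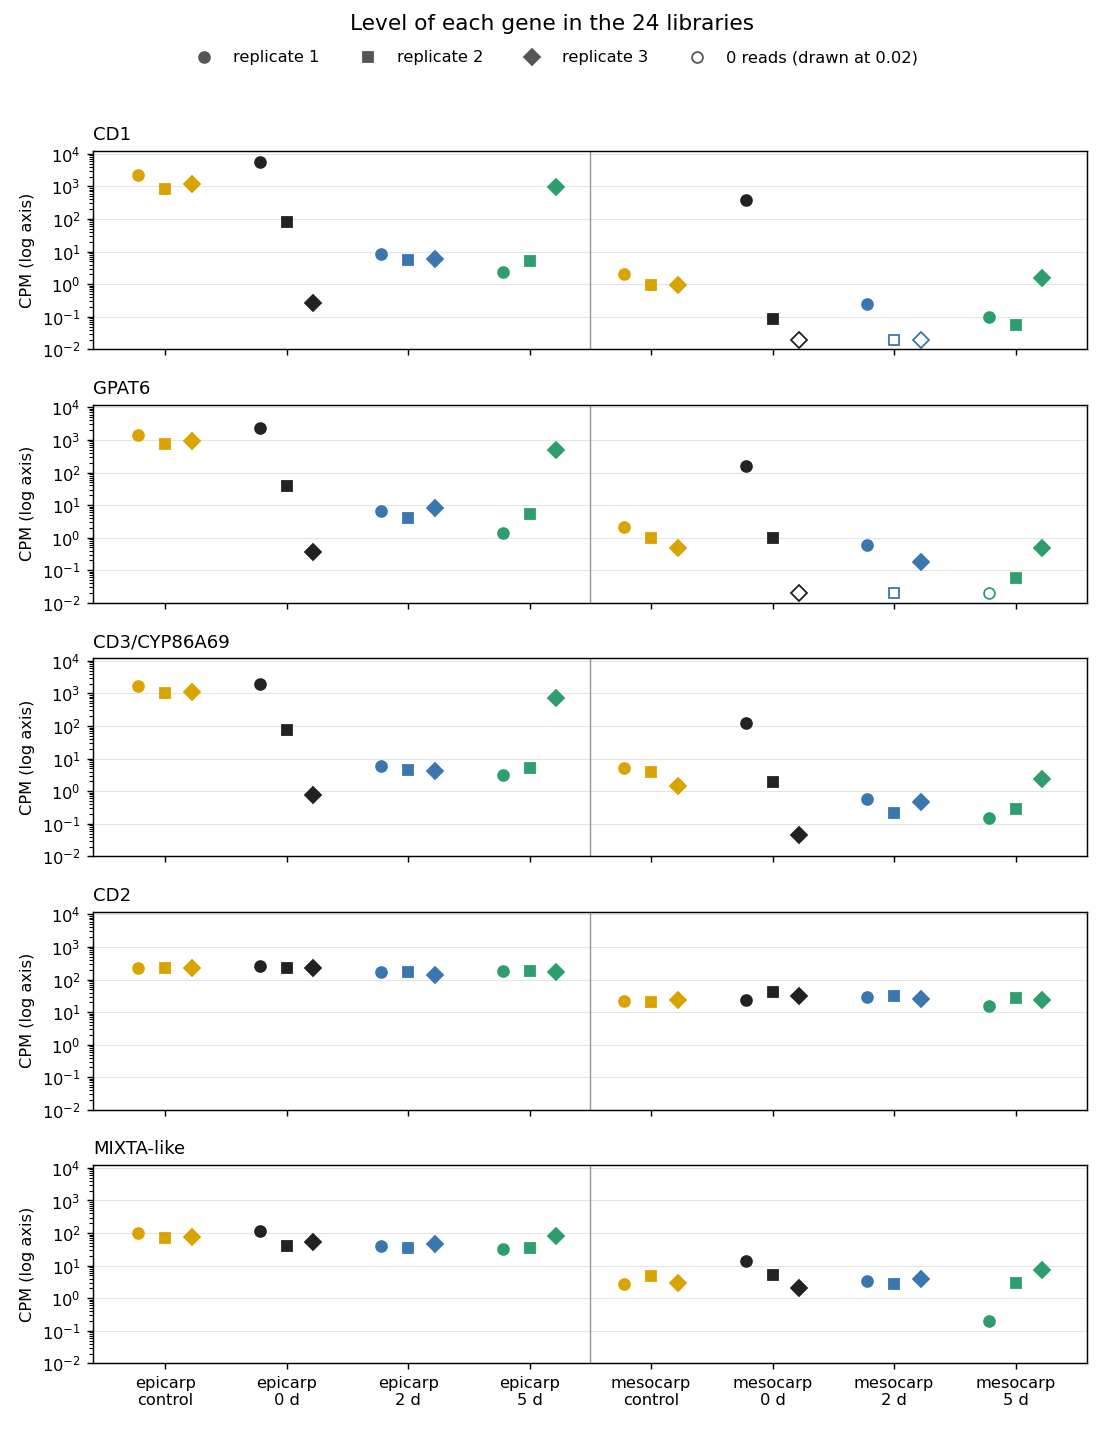
Level of each of the 5 genes in the 24 libraries, in CPM on a log axis, with 1 symbol shape per replicate and open symbols for libraries with 0 reads. The 3 enzymes (upper panels) move over several orders of magnitude between replicates at 0 d and 5 d, while CD2 stays between 137.2 and 263.1 CPM in every epicarp library.

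The skin of light-grown fruit carried far more transcripts of all 5 genes than its flesh. CD1 stood at 2270, 809.6 and 1227 CPM in epicarp control replicates 1, 2 and 3 and at 2.06, 0.944 and 0.936 CPM in the mesocarp ones. GPAT6 stood at 1406, 730.2 and 928.5 CPM in epicarp and at 2.16, 0.944 and 0.468 CPM in mesocarp. CD3 stood at 1740, 1054 and 1116 CPM in epicarp and at 5.16, 3.98 and 1.45 CPM in mesocarp. Every epicarp library lay above every mesocarp library for each of these enzymes, and the lowest epicarp value exceeded the highest mesocarp value 392-fold for CD1, 338-fold for GPAT6 and 204-fold for CD3. The regulators were also higher in skin but by less. CD2 stood at 222.9, 223.4 and 225.1 CPM in epicarp and at 22.4, 20.2 and 23.1 CPM in mesocarp. The MIXTA-like gene stood at 99.9, 73.1 and 77.2 CPM in epicarp and at 2.72, 4.97 and 3.02 CPM in mesocarp. Neither regulator overlapped between the tissues. The share of all tested genes without overlap is not given here or below, so a lack of overlap only describes the values.

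All 5 genes passed edgeR's quasi-likelihood test for higher expression in control epicarp (adjusted p under 0.05), where 26.8% of the 19620 tested genes passed in either direction and 13.2% were higher. The log2 difference, epicarp minus mesocarp, was 10.09 ± 3.24 for CD1 (SE, adjusted p 0.0271). It was 9.75 ± 2.92 for GPAT6 (0.0184) and 8.53 ± 2.60 for CD3 (0.0205). The regulators had smaller differences with far smaller errors, 3.35 ± 0.20 for CD2 (1.44e-09) and 4.55 ± 0.79 for the MIXTA-like gene (0.000333). The fit shares 1 spread per gene over all 24 libraries, including the 0 d and 5 d groups, in which the replicates of the enzymes diverged. Without any 1 of the mesocarp control libraries the 3 enzymes missed the threshold (adjusted p 0.0537 to 0.0909), although no library overlapped.

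Per length of gene, CD3 was the most abundant of the 5 in control epicarp at 2153 ± 530.9 TPM (SD, n = 3). CD1 stood at 1363 ± 657.1 TPM, GPAT6 at 834.1 ± 248.7 TPM, CD2 at 107.5 ± 4.68 TPM and the MIXTA-like gene at 93.1 ± 12.1 TPM. The ranges of the 3 enzymes overlapped in part, with CD1 between 797.6 and 2084 TPM and CD3 between 1797 and 2763 TPM. TPM here divides by the whole interval, introns included. CD1 was first of the 122 genes described as GDSL in the table by mean TPM in control epicarp and held 42.5% of the family's summed TPM, ahead of Solyc03g111550.4 at 558.5 TPM. GPAT6 was first of 11 genes described as glycerol-3-phosphate acyltransferases and held 57.0% of their TPM, ahead of GPAT4 (Solyc01g094700.5) at 524.2 TPM. The 6 genes described as acylglycerol-phosphate acyltransferases, another enzyme, were left out. In epicarp at 2 d CD1 was 13th in its family with 1.34% of the TPM and GPAT6 was 5th with 7.30%. How reads that match several family members were counted is not stated in the labels.

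The other genes of the pathway were read from a list of 11 further cutin genes. Of these, 10 matched the table and 9 were tested, since SHN1 had 0 reads in all 24 libraries and DCR was not analysed here. In control fruit 8 of the 9 were higher in epicarp, where 13.2% of all tested genes were. The median log2 difference of the 9 was 5.95 against 0.01 over all tested genes. CYP77A2, a cytochrome P450 of the CYP77A family, differed by 8.05 ± 1.72 (adjusted p 0.00194). SHN2 (Solyc12g009490.4), an AP2-type activator of cuticle genes, differed by 7.56 ± 2.39 (0.027) and LACS2, an acyl-CoA synthetase, by 6.98 ± 1.97 (0.0132). The annotated interval of LACS2 shares 3004 bases with a neighbour on the opposite strand, and its reads cannot be assigned to 1 of them without strand. CYP86A68, another hydroxylase, averaged 17.5 ± 10.8 CPM (SD, n = 3) in skin and 0.994 ± 0.766 CPM in flesh, did not overlap, and missed the threshold (0.0509).

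Dark-grown epicarp taken at once after unwrapping split by library in the enzymes. At 0 d CD1 stood at 5720 CPM in replicate 1, 78.05 CPM in replicate 2 and 0.261 CPM, or 5 reads, in replicate 3. GPAT6 stood at 2376, 37.3 and 0.366 CPM in these libraries, the last being 7 reads. CD3 stood at 1954, 76.06 and 0.784 CPM, the last being 15 reads. Replicate 1 lay above every control library for the 3 enzymes, and replicates 2 and 3 lay below every control library. From replicate 1 to 2 the ratio was 73.3 for CD1, 63.7 for GPAT6 and 25.7 for CD3, and from replicate 2 to 3 it was 298.7, 102 and 97.0. On the log2 scale (CPM with a prior count of 2) CD1 spanned 13.96 units, GPAT6 12.33 and CD3 11.12. No tested gene had a wider range than CD1 in this group, and 0.0153% and 0.0306% had a wider one than GPAT6 and CD3.

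CD2 did not take part in this split. It stood at 263.1, 223.3 and 230.6 CPM in the 3 epicarp libraries at 0 d, a log2 range of 0.24, and 86.7% of tested genes had a wider one. In replicate 3, CD2 was thus near its control level where CD1 had 5 reads. The MIXTA-like gene stood between these patterns at 117.3, 39.1 and 52.8 CPM, a range of 1.58, with replicate 1 above and replicates 2 and 3 below the controls.

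Across the 3 libraries, 0 of the 5 genes passed the test of 0 d against control in epicarp, where 19.1% of tested genes did. The log2 change was 0.43 ± 2.16 for CD1, -0.34 ± 1.96 for GPAT6, -0.95 ± 1.87 for CD3, 0.09 ± 0.18 for CD2 and -0.26 ± 0.67 for the MIXTA-like gene (adjusted p 0.762 to 0.934). Those of the enzymes rest on replicate 1. Without it they were -5.23, -5.79 and -5.12 for CD1, GPAT6 and CD3, still past no threshold (adjusted p 0.106 to 0.183). Without replicate 2 or 3, GPAT6 turned to 0.18 or 0.23. For CD1 the sign was also reversed with limma on log2(TPM + 1) (-3.95, adjusted p 0.275) and with the replicate block (-0.58).

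Most of the other cutin genes ordered the 0 d epicarp libraries as the enzymes did, and 6 of the 9 tested ripening genes in reverse. SHN2 stood at 166.3, 5.08 and 0 CPM in replicates 1, 2 and 3, LACS2 at 182.2, 14.2 and 0.366 CPM, and CYP77A1 at 632.9, 39.0 and 2.20 CPM. CYP77A2 stood at 3060, 451.7 and 86.0 CPM. All 4 were highest in replicate 1 and lowest in replicate 3, as were 8 of the 9 tested genes of the list. The exception was ABCG11, an exporter also used outside the cutin pathway, at 135.8, 88.2 and 108.8 CPM. The summed level of the 10 matched cutin genes was 7273, 1233 and 437 CPM, against 3405 to 4855 CPM in the controls. Of the 9 matched ripening genes, the summed level was 776.1, 931.3 and 4090 CPM in the same libraries, against 829.5 to 948.8 CPM in the controls. The NAC-type ripening regulator NOR was measured at 0.0468, 3.04 and 188.5 CPM. The ripening regulator RIN was not analysed here. The part that ripening stage has in the split was not tested.

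The epidermis markers did not all follow the enzymes. The 4 markers are CER3 and CER6, which act in the synthesis of wax alkanes, and TTS1 and TTS2, which make the triterpenoids of the fruit cuticle. All 4 had reads in every library, and their summed level in epicarp at 0 d was 1541, 745.7 and 765.9 CPM, against 1415 to 1932 CPM in the controls. CER1, another wax gene, is not among these markers, and with it the sums were 1546, 916.1 and 1252 CPM against 1430 to 1959 CPM. CER3 stood at 32.8, 29.6 and 67.5 CPM, below the controls (110 to 264 CPM) in all 3 libraries and highest in replicate 3. CER6 stood at 777.9, 285.9 and 379.2 CPM, against 614.2 to 931.6 CPM in the controls. TTS1 stood at 198.9, 295.7 and 291.9 CPM and so was not lower in replicates 2 and 3. From control to 0 d in epicarp, 1 of the 5 wax genes passed as higher and 1 as lower, where 19.1% of tested genes passed. TTS2 stood at 531.2, 134.6 and 27.4 CPM, in the order of the cutin enzymes. Markers of the phloem, 7 sieve element occlusion genes of which 5 were tested, summed to 12.8 to 27.2 CPM in the epicarp libraries and 32.8 to 180.7 CPM in the mesocarp ones. The 47 seed genes, oleosins and storage proteins of which 15 were tested, summed to 12.7 to 25.6 CPM in epicarp and 9.83 to 133.1 CPM in mesocarp.

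**Figure D2:**
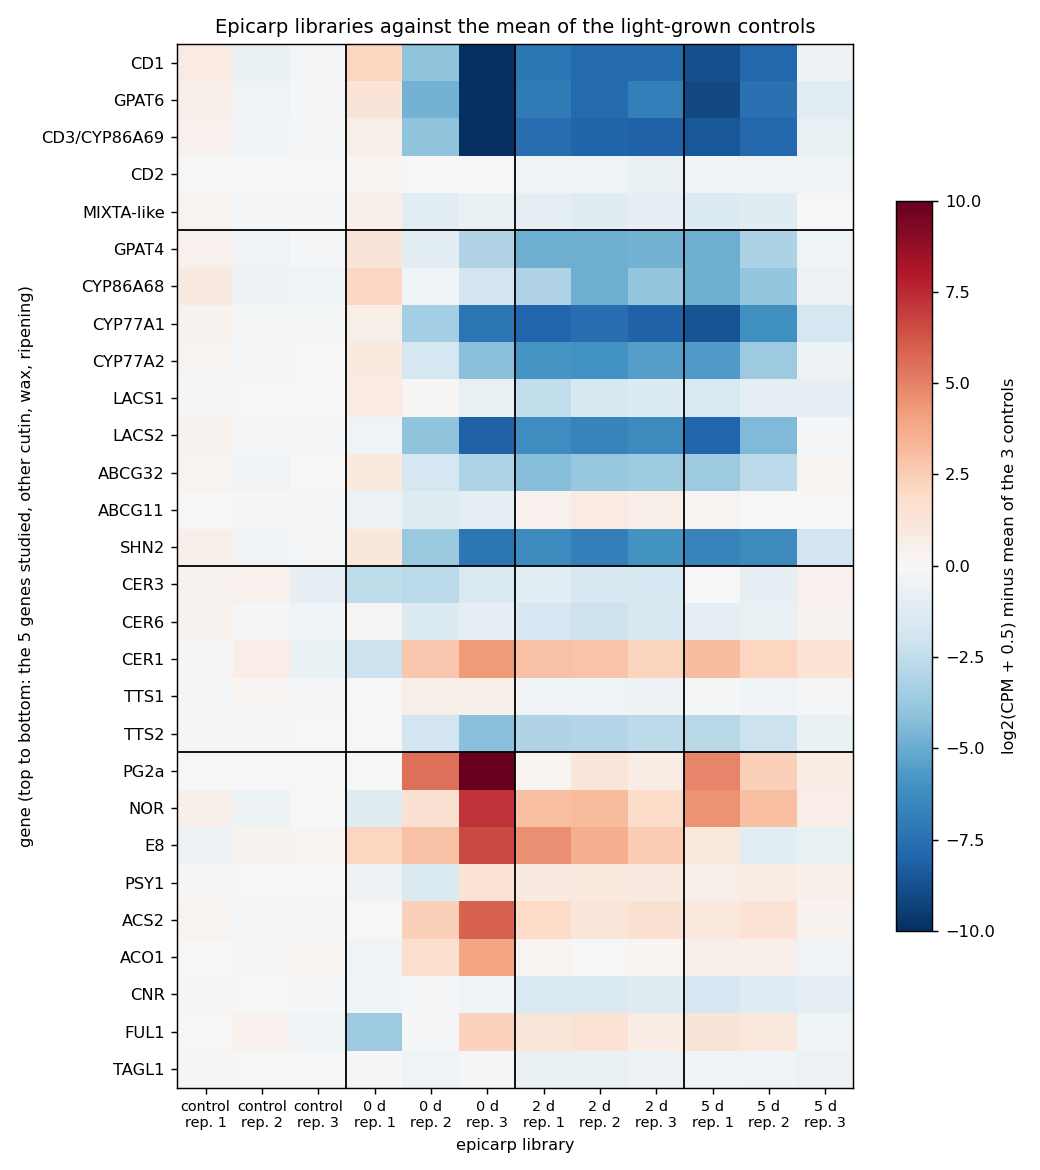
Epicarp libraries as columns and genes as rows, coloured by log2(CPM + 0.5) minus the mean of the 3 light-grown controls (red above, blue below, scale from -10 to 10). CD1, GPAT6 and CD3 are blue in 7 of the 9 libraries of covered fruit and not in 0 d replicate 1, which is above the controls, or in 5 d replicate 3, which is slightly below their mean, and CD2 stays pale throughout.

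After 2 d in light the enzymes were low in the skin of all 3 replicates. CD1 stood at 8.14, 5.56 and 5.99 CPM, GPAT6 at 6.68, 3.88 and 7.95 CPM and CD3 at 5.93, 4.43 and 4.07 CPM. These libraries lay close together, and all lay below 0 d replicates 1 and 2 and above 0 d replicate 3. CD2 stood at 167.5, 164.7 and 137.2 CPM, below every 0 d library, and the MIXTA-like gene at 41.4, 35.6 and 47.3 CPM, overlapping the 0 d libraries. From 0 d to 2 d, 4 of the 5 genes fell, where 36.7% of tested genes changed in either direction and 19% fell. The log2 change was -8.20 ± 2.97 for CD1 (adjusted p 0.0375), -7.02 ± 2.56 for GPAT6 (0.0388) and -7.14 ± 2.45 for CD3 (0.0291). It was -0.61 ± 0.18 for CD2 (0.0125) and, past no threshold, -0.75 ± 0.67 for the MIXTA-like gene (0.41). The enzyme calls rest on 0 d replicate 1, without which the changes were -2.56, -1.59 and -2.98 (adjusted p 0.272 to 0.579). In that fit 0 of the 5 genes passed, where 33.2% of tested genes did. The enzyme calls were lost as well without any 1 of the 2 d libraries (0.0873 to 0.121), and CD2 missed the threshold without 0 d replicate 1 (0.0544) or 2 d replicate 3 (0.0669).

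Light-grown control and 2 d skin give a comparison whose means leave out the 0 d libraries, added after the values were seen. In the shared fit its spread still comes from all 24 libraries, those of 0 d included. The lowest control library lay above the highest 2 d library 99.5-fold for CD1, 91.8-fold for GPAT6 and 177.9-fold for CD3. For CD2 this margin was 1.33-fold and for the MIXTA-like gene 1.54-fold. GPAT6 fell by 7.37 ± 2.60 on the log2 scale (adjusted p 0.0443), CD3 by 8.08 ± 2.55 (0.0259) and CD2 by 0.52 ± 0.18 (0.0417). CD1 differed by -7.77 ± 2.92 (0.0573) and the MIXTA-like gene by -1.01 ± 0.68 (0.294), both short of the threshold. Of all tested genes 26.1% changed and 12.7% were lower. With the spread taken from these 6 libraries alone all 5 genes passed, as did 47.8% of the genes tested in that fit. In the shared fit without any 1 of the 2 d libraries none passed, where 16.6% to 19.2% of tested genes did. Without any 1 of the controls only CD3 passed, where 18.2% to 18.8% did.

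The rest of the cutin list was also low in skin lit for 2 d. Against control, 8 of the 9 tested genes fell, where 26.1% of all tested genes changed and 12.7% were lower. The median log2 change of the 9 was -4.89 against 0.00 over all tested genes. CYP77A1, a hydroxylase, went from 422.5 ± 93.0 to 1.26 ± 0.281 CPM (-8.38 ± 2.03, adjusted p 0.0055). SHN2 changed by -7.49 ± 2.39 (0.0292), LACS2 by -6.69 ± 1.94 (0.0167) and CYP77A2 by -5.82 ± 1.55 (0.01). ABCG11, the gene that did not fall, stood at 206.3 CPM in control and 316.9 CPM at 2 d (0.62 ± 0.31, 0.157). Of the 5 wax genes 3 fell, TTS2 by 2.85 ± 0.76 (0.00957), CER6 by 1.79 ± 0.59 (0.0316) and CER3 by 1.53 ± 0.51 (0.0336) on the log2 scale. CER1 averaged 27.3 CPM in control and 166.4 CPM at 2 d without overlap (2.61 ± 0.97, 0.0548), and TTS1 193.5 and 145.3 CPM (-0.41 ± 0.41, 0.499). The 4 epidermis markers summed to 452.7 to 539.6 CPM at 2 d against 1415 to 1932 CPM in control, and with CER1 to 634.3 to 733.8 against 1430 to 1959 CPM. Their part in the falls was not tested.

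At 5 d the skin libraries split again, now with replicate 3 apart. CD1 stood at 2.41, 5.22 and 938 CPM in replicates 1, 2 and 3. GPAT6 stood at 1.42, 5.17 and 485.4 CPM and CD3 at 3.14, 5.07 and 744.4 CPM. Replicate 3 was thus within the control range for CD1 and below it for GPAT6 and CD3, while replicates 1 and 2 lay within or below the range of the 2 d libraries. The log2 range was 8.55 for CD1, 8.33 for GPAT6 and 7.84 for CD3, and at most 0.0306% of tested genes had a wider one. CD2 stood at 187.2, 178.8 and 166.9 CPM and was lowest in replicate 3. The MIXTA-like gene stood at 32.1, 35.1 and 81.2 CPM, with replicate 3 at its control level.

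None of the 5 genes passed from 2 d to 5 d in epicarp, where 3.27% of tested genes did. The log2 change was 5.58 ± 2.65 for CD1, 4.73 ± 2.31 for GPAT6, 5.70 ± 2.30 for CD3, 0.18 ± 0.18 for CD2 and 0.26 ± 0.67 for the MIXTA-like gene (adjusted p 0.192 to 0.904). Without 5 d replicate 3 the changes turned to -0.78, -0.90 and -0.22 for the enzymes and -0.30 for the MIXTA-like gene. From control to 5 d, 0 of 5 passed as well, against 14.9% of tested genes, with adjusted p from 0.228 for CD2 to 0.56 for CD1, although GPAT6, CD3 and CD2 lay below every control library in all 3 libraries. Without 5 d replicate 3, CD3 was lower than control by -8.32 (0.0474) and CD1 (-8.57, 0.0915) and GPAT6 (-8.29, 0.0679) were not past the threshold. Of the 9 other cutin genes tested, 8 were highest in replicate 3 and lowest in replicate 1, with log2 ranges from 0.76 for LACS1 to 8.49 for LACS2, and ABCG11 was highest in replicate 1 (0.31). SHN2 stood at 0.21, 0.406 and 19.4 CPM, CYP77A2 at 29.8, 124 and 1093 CPM and the epidermis markers summed to 837.2, 815.9 and 1670 CPM. NOR stood at 28.4, 9.63 and 1.47 CPM and PG2a, the polygalacturonase of ripe fruit, at 14.4, 2.13 and 0.332 CPM. These had the widest ranges of the ripening list, whose sum was 714, 676.6 and 587.6 CPM, and CNR was highest in replicate 3 at 263.5 CPM. Of the wax genes, TTS1 had a range of 0.15 and CER1 was highest in replicate 1 at 214.5 CPM.

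In the flesh the enzymes stood at 5.16 CPM or less in every library except 0 d replicate 1. CD1 stood at 377, 0.0827 and 0 CPM in mesocarp 0 d replicates 1, 2 and 3, GPAT6 at 163.4, 0.993 and 0 CPM and CD3 at 127.5, 1.90 and 0.0442 CPM. Replicate 1 thus exceeded every control mesocarp library, while replicate 3 had no more than 1 read of any of the 3. CD2 stood at 23.1, 41.8 and 30.9 CPM and was lowest in replicate 1. The MIXTA-like gene stood at 13.8, 5.13 and 2.12 CPM. The replicate that was high in the flesh carries the same number as the one that was high in the skin.

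Set against the epicarp library of the same number, mesocarp 0 d replicate 1 held 6.59% of the CD1 level, 6.88% of that of GPAT6 and 6.53% of that of CD3. In the controls these shares were 0.0763% to 0.117%, 0.0504% to 0.153% and 0.13% to 0.377%. In 0 d replicate 2 they were 2.66% for GPAT6 and 2.50% for CD3. At 2 d, on 12 mesocarp reads or fewer, they were 3.02% for CD1 and 8.84% for GPAT6 in replicate 1. For CD3 they were 4.79% to 11.6% at 2 d and 5.63% in 5 d replicate 2. In 5 d replicate 3 CD1, GPAT6 and CD3 had 0.162%, 0.101% and 0.318%. The pairs not given had 3 mesocarp reads or fewer. In the pair of 0 d replicate 1 the share was 5.65% for CER3, 8.33% for CER6, 5.68% for TTS1 and 5.85% for TTS2. It was 89.3% for CER1, which was low in both libraries. The 4 epidermis markers other than CER1 summed to 109 CPM in mesocarp 0 d replicate 1. Their sum was 46.5 and 12.9 CPM in mesocarp 0 d replicates 2 and 3 and 13.8 to 17.5 CPM in the controls. Over the same 3 libraries the phloem genes summed to 120.5, 67.1 and 32.8 CPM, against 111.3 to 180.7 CPM in control flesh. The seed genes summed to 9.83 to 16.2 CPM at 0 d and 73.6 to 133.1 CPM in control, and the part of either in the differences was not tested. CD2 held 8.77% in mesocarp 0 d replicate 1 and 9.03% to 10.3% in the controls. The MIXTA-like gene held 11.8% there and 2.72% to 6.80% in the controls. Whether skin tissue in the flesh sample has a part in the values of replicate 1 was not tested.

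None of the 5 genes passed from control to 0 d in mesocarp, where 4.3% of tested genes did. The log2 change was 6.57 ± 2.84 for CD1 (adjusted p 0.192), 5.52 ± 2.49 for GPAT6 (0.21), 3.61 ± 2.12 for CD3 (0.339), 0.54 ± 0.18 for CD2 (0.0983) and 0.97 ± 0.72 for the MIXTA-like gene (0.464). Without replicate 1 the enzymes turned to -4.75, -1.21 and -1.82 (adjusted p 0.504 to 0.821), and CD2 passed at 0.74 (0.0134). From 0 d to 2 d CD1 fell in mesocarp (-10.38 ± 3.70, 0.0484), the only 1 of the 5 to pass, where 24.1% of tested genes changed and 10.8% fell. GPAT6 (-7.66 ± 2.93, 0.0652) and CD3 (-6.64 ± 2.61, 0.0728) did not pass, nor did CD2 (-0.15 ± 0.18) and the MIXTA-like gene (-1.06 ± 0.73). Without 0 d replicate 1 the change of CD1 turned to 0.97 (0.946), and without any 1 of the 2 d libraries it missed the threshold (0.129 to 0.133). At 2 d CD1 had reads in 1 of 3 mesocarp libraries (0.246 CPM), GPAT6 lay between 0 and 0.59 CPM and CD3 between 0.212 and 0.59 CPM.

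At 5 d the flesh had its highest enzyme values in replicate 3, the number that was also high in skin. CD1 stood at 0.0974, 0.0571 and 1.52 CPM, GPAT6 at 0, 0.0571 and 0.491 CPM and CD3 at 0.146, 0.285 and 2.36 CPM. CD2 stood at 15.8, 27.2 and 24.4 CPM and the MIXTA-like gene at 0.195, 2.86 and 7.32 CPM. None of the 5 genes passed from 2 d to 5 d (2.51% of tested genes did), from control to 5 d (20.3%) or from control to 2 d (24.8%), with adjusted p from 0.122 to 0.99, although CD1, CD3 and CD2 did not overlap between control and 2 d. Mesocarp levels at 2 d and 5 d rest in part on replicate 3, whose reads were recovered from TPM.

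The difference between skin and flesh held for the regulators in every condition. At 0 d, 18.3% of tested genes differed and 8.78% were higher in epicarp, and 2 of the 5 genes passed as higher, CD2 (2.90 ± 0.19, adjusted p 5.26e-08) and the MIXTA-like gene (3.32 ± 0.74, 0.00456). CD1 (3.94 ± 2.43, 0.276), GPAT6 (3.88 ± 2.20, 0.234) and CD3 (3.97 ± 2.10, 0.199) overlapped between the tissues. In each of the 3 same-numbered pairs the epicarp library was the higher one for each enzyme, with at most 1 read in mesocarp replicate 3. With replicate number as a block all 5 passed (4.37 to 5.28 for the enzymes, 5.61e-05 to 0.00091), as did 27.1% of tested genes. That pairing was read from these same data and is not in the labels, so these passes are no independent evidence. In the shared fit without mesocarp replicate 1 all 5 passed, as did 16.9% of tested genes, with 15.29 for CD1. Without epicarp replicate 1 the enzymes turned to -1.72, -1.58 and -0.21. With only the groups compared, the MIXTA-like gene missed the threshold as well (0.144), and that fit called 37 genes in all, or 0.21%.

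At 2 d CD2 (2.44 ± 0.19, adjusted p 1.28e-07) and the MIXTA-like gene (3.62 ± 0.77, 0.00269) were again the 2 that passed as higher in skin, where 18.5% of tested genes differed and 8.2% were higher. The enzymes did not overlap, since the lowest epicarp value was 3.88 CPM and the highest mesocarp value 0.59 CPM. Their log2 differences of 6.12 ± 3.60 for CD1 (0.266), 4.51 ± 2.82 for GPAT6 (0.298) and 3.48 ± 2.50 for CD3 (0.375) missed the threshold in the shared fit. They passed with the spread taken from these 6 libraries (0.000156 to 0.00164), where 32.4% of tested genes did. With the replicate block they passed too (0.000132 to 0.00225), as did 26.4%, but pairing by number was not shown at 2 d.

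At 5 d, 4 of the 5 genes passed as higher in skin, where 17.5% of tested genes differed and 7.12% were higher. The log2 difference was 9.67 ± 3.13 for GPAT6 (adjusted p 0.0392), 8.01 ± 2.61 for CD3 (0.0407), 2.98 ± 0.20 for CD2 (2.82e-08) and 3.83 ± 0.77 for the MIXTA-like gene (0.00199). CD1 differed by 9.06 ± 3.20 (0.0578). It passed with the replicate block (0.000286), where 25.9% of tested genes did, but pairing by number was not shown at 5 d. Without epicarp replicate 3 the enzymes differed by 2.69, 4.04 and 2.08 and did not pass (0.399 to 0.58), and without any 1 of the mesocarp libraries GPAT6 and CD3 missed the threshold too (0.0763 to 0.139).

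**Figure D3:**
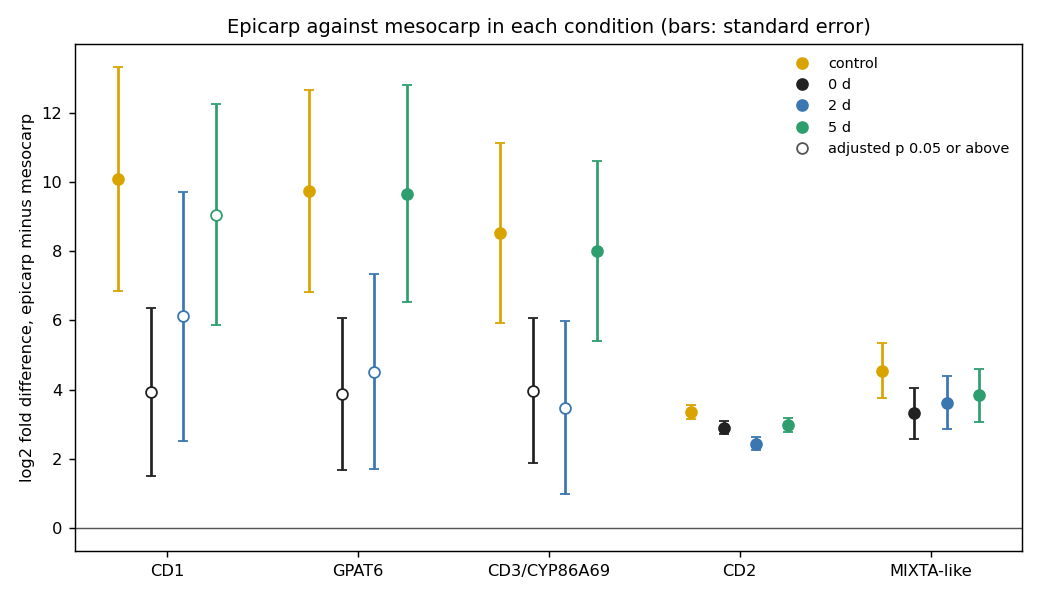
Log2 difference of epicarp minus mesocarp for each gene in the 4 conditions, with standard errors as bars and open symbols where the adjusted p was 0.05 or above. CD2 and the MIXTA-like gene pass in all 4 conditions with narrow bars, and the 3 enzymes have wide bars throughout.

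An interaction term asked if the change from control to 0 d differed between the tissues, with positive values for a higher change in epicarp. None of the 5 genes passed, where 2.56% of tested genes did. The log2 value was -6.14 ± 3.42 for CD1 (adjusted p 0.383), -5.87 ± 3.10 for GPAT6 (0.355), -4.56 ± 2.80 for CD3 (0.438), -0.45 ± 0.26 for CD2 (0.397) and -1.23 ± 0.98 for the MIXTA-like gene (0.569). With the replicate block the 3 enzymes passed at -4.80 for CD1 (0.0311), -5.47 for GPAT6 (0.000654) and -4.12 for CD3 (0.00597), as did 7.4% of tested genes. That block also pairs the control libraries, where pairing by number was not shown. Without mesocarp 0 d replicate 1 and without the block the enzymes turned to 5.17, 0.85 and 0.86 (0.62 to 0.949). The same test at 5 d passed for none of the 5 (adjusted p 0.64 to 1) and for 0.973% of tested genes.

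The order of the 8 groups by mean log2 CPM was epicarp control, 0 d, 5 d and 2 d and then mesocarp 0 d and control for each enzyme, with mesocarp 2 d and 5 d last. Every neighbouring pair in that order overlapped, and epicarp control and epicarp 2 d, which are not neighbours, did not. For CD2 the order was epicarp 0 d, control, 5 d and 2 d, then mesocarp 0 d, 2 d, 5 d and control. Its epicarp control and 5 d libraries did not overlap, nor did epicarp 2 d and mesocarp 0 d, while the other neighbours did. For the MIXTA-like gene the order in epicarp was that of the enzymes, and the step from epicarp 2 d to mesocarp 0 d was the only one between neighbours without overlap.

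The 3 enzymes moved together across the libraries. Pearson's r of log2 CPM over 24 libraries was 0.986 for CD1 and GPAT6, 0.983 for CD1 and CD3 and 0.989 for GPAT6 and CD3. For each enzyme the other two were the 2 tested genes most like it. These points share tissue, replicate and library, so r is a description and not a test. Over the 18 libraries without 0 d the same 3 values were 0.989, 0.987 and 0.986. CD2 and the MIXTA-like gene had an r of 0.919 with each other over the 24 libraries, which was 0.546 over the 12 epicarp libraries. With CD1 over those 12 libraries r was 0.477 for CD2 and 0.843 for the MIXTA-like gene.

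**Figure D4:**
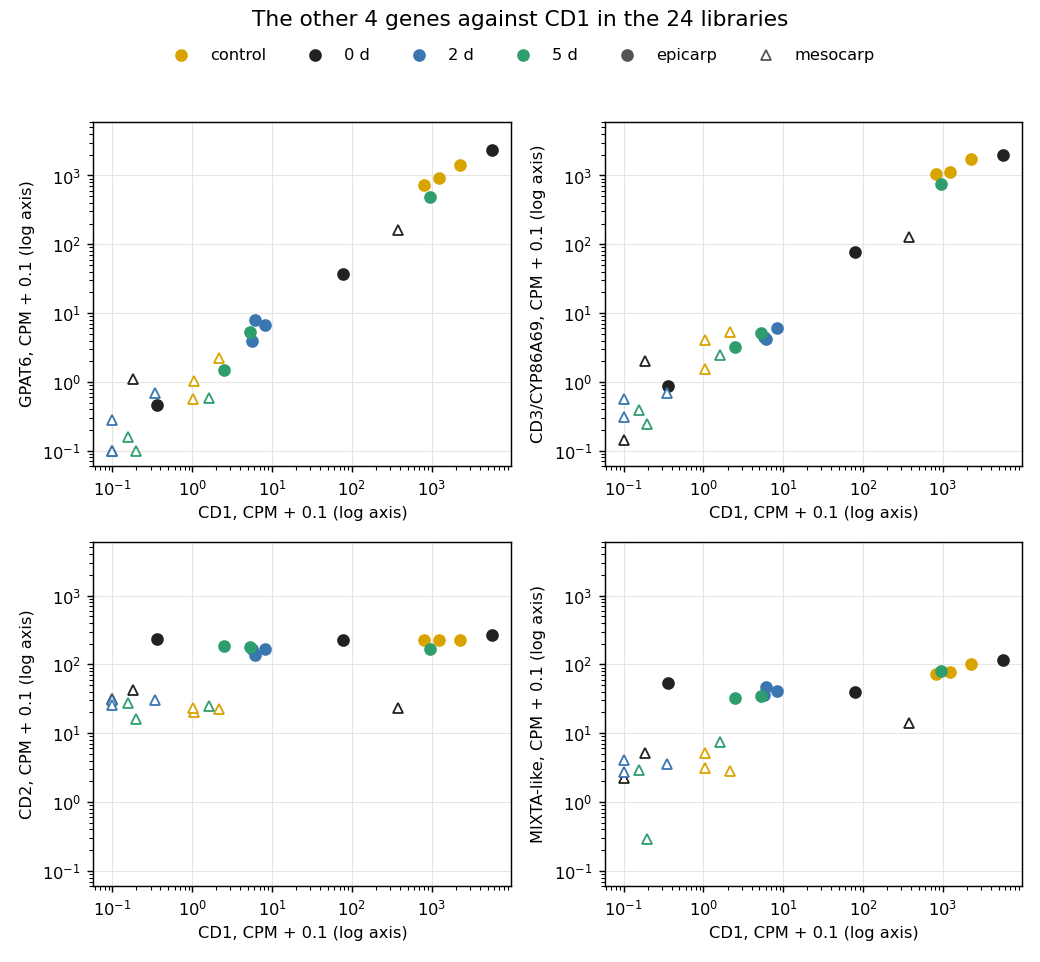
The other 4 genes against CD1 in the 24 libraries, both axes in CPM + 0.1 on log scales, with filled circles for epicarp and open triangles for mesocarp. GPAT6 and CD3 climb with CD1 across the libraries of both tissues, while CD2 forms a flat band of epicarp libraries above a band of mesocarp libraries.

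The genes most like the members outside this group were named by r over the 24 libraries. For CD1 they were an F-box protein gene (Solyc10g078410.2, r 0.978), another GDSL gene (Solyc02g077330.3, 0.976), a RING-H2 finger gene (Solyc07g006360.1, 0.976), a gene for a hypothetical protein (Solyc06g009770.1, 0.973) and SHN2 (0.971). The F-box gene, on chromosome 10 from 59351179 to 59353167, stood at 295.5, 19.2 and 0.679 CPM in epicarp 0 d replicates 1, 2 and 3 and at 2.36, 6.74 and 117.1 CPM at 5 d. The GDSL gene, on chromosome 2 from 40291255 to 40294821, stood at 308.2, 11.7 and 0.0523 CPM at 0 d and at 1.73, 3.95 and 184.2 CPM at 5 d. For GPAT6 the F-box gene (0.982), a GMC oxidoreductase gene (Solyc06g035580.3, 0.981) and Solyc06g009770.1 (0.980) were closest. For CD3 they were another GMC oxidoreductase gene (Solyc03g121600.4, 0.981), the F-box gene (0.980) and Solyc06g035580.3 (0.980). Solyc06g035580.3 was abundant, at 1067 CPM in control epicarp and 1.70 CPM in control mesocarp.

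For the regulators the closest genes were others. CD2 was most like a FRIGIDA-like gene (Solyc06g007640.3, 0.969), a fatty acid hydroxylase gene (Solyc08g044260.4, 0.969) and a receptor-like kinase gene (Solyc01g102700.4, 0.966). Within the 12 epicarp libraries r to CD2 was 0.636, -0.042 and 0.771 for these genes. The MIXTA-like gene was most like an HXXXD-type acyltransferase gene (Solyc12g087980.3, 0.957), a glycine-rich cell wall protein gene (Solyc12g098225.1, 0.946) and a receptor-like kinase gene (Solyc07g018190.5, 0.945), with 0.899, 0.941 and 0.845 within epicarp.

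Among the other lists, likeness to CD1 over the 12 epicarp libraries ran from 0.987 for SHN2 to -0.166 for ABCG11 in the cutin genes. In the wax genes it was 0.972 for TTS2, 0.761 for CER6, 0.201 for CER3, 0.034 for TTS1 and -0.903 for CER1, which acts in the synthesis of wax alkanes. CER1 stood at 5.42, 170.4 and 485.9 CPM in epicarp 0 d replicates 1, 2 and 3, the reverse of CD1. In the ripening genes r to CD1 ran from -0.934 for NOR to 0.641 for CNR, and TAGL1 had 0.475.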

How the data were processed

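RNA from 24 libraries was compared. The deposited table of read counts per gene was made by the authors with featureCounts after Trimmomatic 0.39, per the submitters' processing notes, which also name DESeq2. The aligner and the strand setting were not given in any source used here. The authors' TPM values divide the same reads by the whole gene interval, as tested on the deposited files. Of the count columns, 2 carry the same name and were not used. The reads of mesocarp 2 d and 5 d replicate 3 were recovered from the TPM instead, which gave whole reads (within 0.01) for 100.0% of genes. In the remaining 22 libraries this recovery returned the deposited counts.

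Counts were fitted in R 4.3.3 with edgeR 4.0.16 (TMM, filterByExpr, 19620 genes kept of 34688, 1 mean for each of 8 groups, robust quasi-likelihood test, Benjamini-Hochberg adjustment over all tested genes at 0.05). The script was tested on simulated data, in which each gene had the same spread in all groups. That test does not cover the divergence of the enzymes between replicates at 0 d and 5 d. The standard error is the fold over the square root of F. Alternatives used limma 3.58.1, DESeq2 1.42.0, other scaling, no filter, only the groups compared, a replicate block and leaving out each library. Python 3.11.15 (numpy 2.4.6, pandas 2.3.3) made the tables. The members and lists were chosen with earlier results of these data known, and the control to 2 d comparisons were added after the values were seen. In each other list the rule allowed naming the 4 called genes of largest log2 change, or where there were no calls the 2 of lowest p. For 0 d these were up to 4 genes a list with the widest range, and for likeness the 5 genes closest to CD1 and the 3 closest to each other member. ABCG11, CER1 and the genes named for single libraries beside these were chosen after their values were seen.

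Same-numbered epicarp and mesocarp libraries deviated together from their group means at 0 d (r 0.385 to 0.644), and numbers were taken to pair the tissues there. Differently numbered libraries were not compared, so this r does not settle the pairing. The labels give replicate numbers only. At 2 d (0.124 to 0.171) and 5 d (0.194 to 0.305) r overlapped that of control (0.045 to 0.212). Since the pairing of the controls is itself unknown, pairing was neither shown nor excluded in any of them. Between conditions of a tissue r was -0.494 to 0.145, so no pairing was taken. The replicate block nevertheless pairs the tissues in every condition.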

Additional observations from a re-analysis of the deposited data

How the results depend on the processing

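Of the fold changes of the 5 genes in the 12 comparisons whose folds were recomputed under the alternatives, 626 kept direction and side of the threshold, 71 lost the call, 31 gained one and 21 reversed. The cause was not tested in any case. The comparisons of mesocarp 5 d with 2 d and with control, of mesocarp 2 d with control and the 5 d interaction enter by their number of calls alone. In mesocarp at 2 d and 5 d several enzyme values lie at or under 3 reads, where folds depend on the prior count.

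The number of the 5 genes called depended on the fit. With the replicate block it was 5 for epicarp against mesocarp at 0 d and at 2 d, 1 for 2 d against 0 d in epicarp, 0 for the same in mesocarp and 3 for the interaction at 0 d. The shares of all tested genes called there were 27.1%, 26.4%, 33.5%, 21.1% and 7.4%. Numbers were taken to pair the tissues at 0 d alone and not the conditions, so the block within a tissue joins samples that share only a number. A fit on the compared groups alone called 1, 5 and 2 for the tissues at 0 d, 2 d and 5 d, 1 for 2 d against 0 d and 1 for 5 d against control in epicarp, and 0 for 2 d against 0 d in mesocarp, where 0.21%, 32.4%, 20.6%, 28.1%, 29.4% and 12.1% of all tested genes were called. In the comparisons of 2 d with control, added after seeing the data, that fit called 5 in epicarp and 2 in mesocarp, against 47.8% and 31.6% of all tested genes. With limma on log2(TPM + 1) and with no filter the tissues at 5 d gave 2 each, epicarp 2 d against 0 d gave 1 and 2, and mesocarp 2 d against 0 d gave 0 each, with 16.9% and 12.7%, 37.8% and 27.3%, and 28.8% and 17.9% of all tested genes called. DESeq2 called 1 for 5 d against 2 d in epicarp, 1 for 0 d against control in mesocarp and 3 for 2 d against 0 d in mesocarp, against 6.87%, 8.88% and 28.8% of all tested genes. The log2 range of GPAT6 in mesocarp at 0 d was 7.11 on log2(TPM + 1) instead of 10.72.

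Leaving out 1 library at a time, the number called ran from 2 to 5 for the tissues in control and at 0 d and from 2 to 4 at 5 d. The shares of all tested genes called there were 19.7% to 22.4%, 13.2% to 18.8% and 10.8% to 13.3%. In epicarp the number ran from 0 to 4 for 2 d against 0 d (share 27.5% to 36.2%). It ran from 0 to 1 for 5 d against control (7.02% to 13.7%) and for 2 d against control (16.6% to 19.2%). In mesocarp it ran from 0 to 1 for 0 d against control (2.04% to 9.69%) and from 0 to 3 for 2 d against 0 d (17.8% to 22.9%). The log2 differences that reversed ran, for the tissues at 0 d, from -1.72 to 15.29 for CD1, -1.58 to 10.63 for GPAT6 and -0.21 to 9.42 for CD3. For 0 d against control in epicarp they ran from -5.23 to 1.00 for CD1, -5.79 to 0.23 for GPAT6 and -0.03 to 0.10 for CD2, and CD1 was -0.58 with the replicate block and -3.95 with limma. For 5 d against 2 d in epicarp they ran from -0.78 to 6.16 for CD1, -0.90 to 5.31 for GPAT6, -0.22 to 6.28 for CD3 and -0.30 to 0.49 for the MIXTA-like gene. In mesocarp, 0 d against control ran from -4.75 to 7.20 for CD1, -1.21 to 6.28 for GPAT6 and -1.82 to 4.24 for CD3, and 2 d against 0 d from -14.39 to 0.97 for CD1 and -0.32 to 0.10 for CD2. The interaction at 0 d ran from -11.84 to 5.17 for CD1, -11.36 to 0.85 for GPAT6 and -8.77 to 0.86 for CD3. The likeness of Solyc08g044260.4 to CD2 was -0.042 over the 12 epicarp libraries, a setting added after seeing the data.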
